A study of Mus musculus with 4 samples.

Results

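The cells described here were chosen as macrophages, by 4 genes, among cells of testes from busulfan-treated mice. They were taken from the B0 library (busulfan alone) as the cells in which at least 2 of the 4 genes C1qa, C1qb, C1qc and Csf1r were detected, and of these the 150 with the highest mean of the deposited log values over the 4 genes. This gave 150 of the 4659 cells of B0 and of the 27060 cells of the series, and the other 4509 cells of B0 were the comparison. The 4 genes chose the cells, so their levels are given as a description. Below, the 150 are called macrophages by this rule alone, since 83 of them also held Leydig cell RNA at 0.766 of the level of Leydig cells and whether each is 1 cell was not tested.

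All mice were males of ICR, an outbred stock. Per the study's methods, busulfan, an alkylating drug that kills dividing germ cells, was given once at 40 mg/kg to B0 and BA10 mice aged 3 weeks, and from the next day mice received water (A0, B0) or alginate oligosaccharides (AOS, short sugars made from seaweed alginate) at 10 mg/kg (A10, BA10) by gavage. Each group was 1 library made with 10x Genomics 3' chemistry from the cells of 6 mice, pooled before capture, so mice cannot be told apart and no difference here has a replicate check. The study took cut seminiferous tubules into a TrypLE digest and a 40 µm filter, a preparation aimed at tubule cells, whereas macrophages lie mostly between and upon the tubules. Each transcript was counted by its unique molecular identifier (UMI).

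Testis macrophages are the main immune cells of the organ. One kind lies in the interstitium, in close contact with the Leydig cells that make testosterone, and is known for the receptors CSF1R and CD206 (Mrc1). The other lies on the tubule wall near the spermatogonia and is known for MHC class II, the molecules that show peptides to helper T cells. C1qa, C1qb and C1qc encode the 3 chains of C1q, the first component of the classical complement pathway, which tissue macrophages make themselves. Csf1r encodes the receptor for CSF1 and IL-34, the growth factors on which macrophages depend.

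The promoters of C1qb and C1qc, 2 of the genes that chose the cells, and of Ctss, which encodes the lysosomal protease cathepsin S, are shown because they stand at genes among the 10 highest in the macrophages relative to the other cells. Each window runs from 250 bases before to 50 bases after the annotated start, 5' to 3' on the gene's strand, from RefSeq on GRCm38.p6, and capitals mark the letters GAGGAAGT of PU.1, the myeloid factor encoded by Spi1, read on the opposite strand.
C1qb, chr4:136886151-136886450, strand -: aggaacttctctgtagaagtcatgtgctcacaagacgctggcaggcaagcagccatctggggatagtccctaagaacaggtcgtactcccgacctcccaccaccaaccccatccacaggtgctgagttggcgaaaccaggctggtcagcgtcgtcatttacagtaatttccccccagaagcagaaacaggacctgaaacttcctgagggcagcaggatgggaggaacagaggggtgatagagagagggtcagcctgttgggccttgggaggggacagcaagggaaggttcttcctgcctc
C1qc, chr4:136892865-136893164, strand -: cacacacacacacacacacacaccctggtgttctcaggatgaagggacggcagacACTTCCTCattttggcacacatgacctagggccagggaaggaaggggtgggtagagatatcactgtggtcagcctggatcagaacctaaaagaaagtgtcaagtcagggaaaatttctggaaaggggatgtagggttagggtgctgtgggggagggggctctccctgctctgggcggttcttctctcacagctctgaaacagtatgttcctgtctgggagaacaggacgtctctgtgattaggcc
Ctss, chr3:95526536-95526835, strand +: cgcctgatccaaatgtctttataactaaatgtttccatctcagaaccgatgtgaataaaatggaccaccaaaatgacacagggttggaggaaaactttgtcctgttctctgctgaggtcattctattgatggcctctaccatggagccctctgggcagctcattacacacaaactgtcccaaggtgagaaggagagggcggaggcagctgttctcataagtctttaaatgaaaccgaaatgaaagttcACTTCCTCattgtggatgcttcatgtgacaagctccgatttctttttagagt
The window of C1qc holds these letters from position -195 relative to the start and that of Ctss from position -2, and that of C1qb does not hold them. Of 28 genes searched, namely C1q, macrophage identity and macrophage transcription factor genes, 22 had a promoter in the table and 3 of the 22 (C1qc, Ctss and Pf4) held GAGGAAGT on either strand, against 3.69% of all 27025 genes. TGCTGAC, a MAF site, and TTGCGCAA, a C/EBP site, were in 0 of the 22, against 5.28% and 0.207% of all genes. These are matches of letters and were not read as sites.

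Every macrophage but 1 carried C1qa, and C1qb and C1qc were found in all 150. C1qa ranged from 0 to 36 UMIs per cell with a median of 6.5, C1qb from 1 to 29 with a median of 5, and C1qc from 1 to 31 with a median of 6. Csf1r was thinner, at a median of 2 UMIs and at most 8, and 11 cells held none. Of the 150 cells, 138 held all 4 genes and 12 held 3. The rule cut through a continuous range. The cell ranked 1 had a mean value of 4.16, the last member had 1.936 with 9 UMIs of the 4 genes, and the first cell left out had 1.934 with 8. In all, 757 cells of B0 carried 2 or more of the genes. Cells chosen by 3 of the genes alone still carried the gene left out. C1qa was detected in 97.3% of 150 cells chosen without it, C1qb in 89.3%, C1qc in 98.0% and Csf1r in 86.7%. In the same order 138, 127, 136 and 133 of those cells were among the 150 macrophages, so these shares were largely fixed by the choice.

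Levels below are UMIs summed over a set of cells and scaled to 1000000 (CPM). Genes seen in at least 10% of either set were compared, and a gene was called higher or lower at a 2-fold ratio with 10 CPM added to both sides. There were 6940 such genes, of which 644 were higher in the macrophages (9.28%) and 802 lower (11.6%), with a median log2 ratio of 0.01. A gene rare in the other cells was compared only where enough macrophages carried it, so counts over the genes compared lean upward and are a description. This holds for each gene list below, whose counts are to be read beside these shares over all genes. Cells of 1 library are not replicates, and the contrast is the one that chose the cells, so no test was run, and intervals (95%, exact) cover counting error only.

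Macrophage markers that the rule did not use were high as well. Of 14 identity genes 13 passed the filter, 10 of them through the macrophages alone, so their direction was partly fixed by the filter. The median log2 ratio was 4.16 over the 13 and 4.05 over all 14, each at least 2-fold. Lyz2, which encodes lysozyme, stood at 1523 CPM against 32.6 in the other cells (46.7-fold, 42.4 to 51.3), and 93.3% of the macrophages carried it against 9.98% of the others. Tyrobp and Fcer1g, signalling adaptors of myeloid receptors, stood at 1040.3 and 1218 CPM against 41.5 and 58.0. Cx3cr1, the fractalkine receptor, was found in 91.3% of the macrophages at 803 CPM, and Adgre1, which encodes F4/80, in 30% at 88.7 CPM. Cd163, a haemoglobin scavenger receptor, was the identity gene under the filter, with 20 UMIs (32.3 against 1.58 CPM). In 150 germ cells, which should lack these genes, Lyz2 was found in 4.67% and Tyrobp in 8.67% at a median of 4679 UMIs per cell, against 3758.5 in the macrophages. Those shares are the background for a share of cells with a UMI, and the macrophages lay far above them.

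Markers of T, B, NK and dendritic cells and of neutrophils were near 0. No gene of the T, B, NK, dendritic or neutrophil lists passed the filter. Over all 150 cells the 8 dendritic cell markers gave 3 UMIs, with Flt3, Xcr1, Clec9a, Cd209a and Ccr7 at 0, and the neutrophil markers gave 3, with S100a8, S100a9 and Cxcr2 at 0. The 7 T cell markers in the table gave 28 UMIs, 16 of them of Cd4, which mouse macrophages can also carry, with Cd3e and Lck at 0. B cell markers gave 3 UMIs. All 14 UMIs of NK cell markers lay in 1 cell, ranked 24, which also held 10 of the 28 T cell UMIs beside 38 C1q UMIs among its 4067. The monocyte list gave 94 UMIs. S100a4 alone passed the filter, with 46 UMIs (74.2 against 3.20 CPM). Plac8 had 24 UMIs, Ccr2 11, Fn1 7 and Itgal 6, while Ly6c2, Chil3 and Vcan of the same list were at 0. The list gave no UMI in 68.7% of the macrophages, against 84.8% of the other cells.

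The macrophages fell into 2 sets by the amount of Leydig cell RNA they carried. Summed over 8 Leydig markers (Insl3 and the genes of testosterone synthesis and its receptor for luteinising hormone), 67 macrophages lay below 50 UMIs per 10000 and 83 above it. The highest of the lower set had 38.4 and the lowest of the upper set 75.7, and no macrophage lay within 10 of the line. The line of 50 was drawn after the values were seen. The other cells of B0 split at the same place, with 1301 below and 3208 above.

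**Figure D1:**
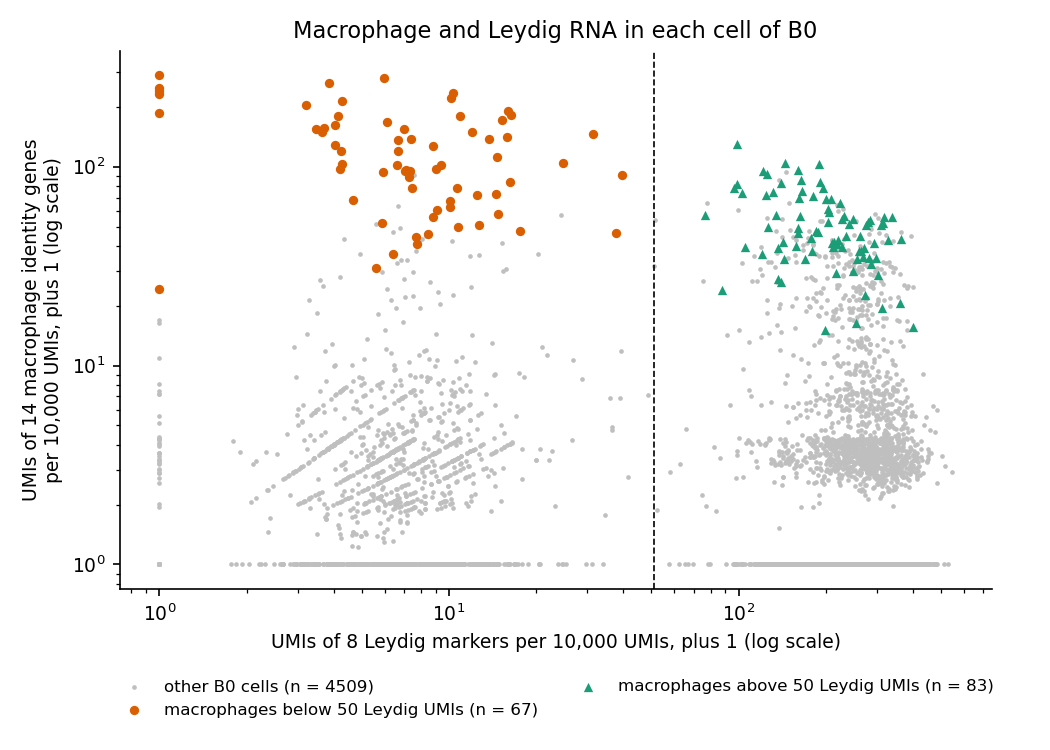
UMIs of 14 macrophage identity genes against UMIs of 8 Leydig markers, both per 10,000 UMIs of the cell plus 1 on log scales, for each cell of B0; grey points are the 4509 other cells, and the dashed line marks 50 Leydig UMIs. The 67 macrophages left of the line and the 83 right of it form separate groups, and the left group reaches higher on the macrophage axis.

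Leydig RNA made up 9.40 UMIs per 10000 in the lower set and 211 in the upper set. Leydig cells with none of the 4 macrophage genes (2050 cells) held 275, so the upper set stood at 0.766 of that level, while the germ cells held 4.82. Macrophage RNA moved the other way. The 14 identity genes summed to 115 UMIs per 10000 in the lower set and 52.1 in the upper set, 0.455 of the lower set's level, against 1.26 in the Leydig cells with none of the 4 genes. The lowest cell of the upper set held 14.1 identity UMIs per 10000. The upper set held the RNA of both cell types well above the level in the germ cells.

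The proportions of the genes were alike for some and not for others. Insl3 made 44.6% of the Leydig UMIs in the lower set, 45.9% in the upper set and 43.4% in Leydig cells. Cyp17a1, an enzyme of testosterone synthesis, made 14.1%, 24.9% and 26.1% in the same order. Star, which brings cholesterol into mitochondria, made 9.24%, 4.29% and 4.80%. The upper set lay nearer to the Leydig cells for Cyp17a1, Star, Cyp11a1 and Hsd3b6. The lower set lay nearer for Insl3, Hsd3b1, Hsd17b3 and Lhcgr. The shares of the lower set rest on 249 UMIs. Of the identity UMIs Lyz2 made 20.6% and 17.2% in the lower and upper sets, Adgre1 0.791% and 1.68%, Laptm5 4.35% and 6.86% and Aif1 5.53% and 3.35%. Total UMIs per cell were close, with medians of 3518 in the lower set, 4083 in the upper set and 3978 in the Leydig cells. The split followed rank. Of the 50 highest-ranked macrophages 41 lay in the lower set, of the next 50 there were 20, and of the last 50 there were 6. Whether the cells of the upper set were pairs of cells in 1 droplet, cells that stayed attached, or macrophages that took up Leydig RNA was not tested. Some results are therefore given for the lower set too, and where they are not, the 2 sets may still differ. Chemokines had medians of 38.1 UMIs per 10000 in the lower set and 13.6 in the upper, and genes of dead cell uptake 17.9 and 19.4. The lower set was not free of other cells' RNA, since it held the cell with NK markers and 12 cells with Sertoli RNA, described with the Sertoli genes.

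Of 7189 genes compared in the lower set against the other cells, 1008 were higher (14%) and 972 lower (13.5%). All 14 identity genes passed there and were higher, with a median of 4.66. In the upper set 536 of 6918 genes were higher (7.75%) and 1124 lower (16.2%), and its 13 compared identity genes had a median of 3.64. Setting the lower directly against the upper set, 1035 of 6655 genes were higher (15.6%) and 787 lower (11.8%).

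The macrophages were also set against 150 Leydig, 150 Sertoli and 150 germ cells and the 49 cells that passed as endothelial, each chosen from B0 by 4 markers of its type (their own markers are no finding). Of the genes compared 14.9%, 14.1%, 25.5% and 11.5% were higher in the macrophages than in the Leydig, Sertoli, germ and endothelial cells, and 4.02%, 19.4%, 26.7% and 13% lower. The 25 genes with the largest ratios to all other cells were as follows. C1qb, C1qa, C1qc and Csf1r were among them by choice. Wfdc17, a small secreted protein of activated macrophages, was the most abundant at 6834 CPM against 190 (35.9-fold, 34.5 to 37.5), with a median of 19 UMIs per cell and at most 161. Cbr2, a carbonyl reductase, stood at 703 against 14.3 CPM, and Folr2, a folate receptor of tissue-resident macrophages, at 434 against 11.2. The others were F13a1, Ms4a7, Crip1, Alox5ap, Dab2, Mrc1, Trem2, Cd209f, Pf4, Ctss, Cd74, with Lyz2, Cx3cr1 and the adaptors given above and the chemokines described with their list. All 25 were at least 2-fold above the Leydig, Sertoli and germ cells. Against the endothelial cells 24 were, and Crip1 was the exception with a log2 ratio of 0.40. These 4 sets were drawn from the other cells by which the 25 genes were ranked. The counts were therefore largely fixed by the choice of genes and are a description.

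Genes of the complement system beyond C1q were also high. Of 12 compared, 8 were higher and 0 lower (median 2.02), against 9.28% and 11.6% of all genes compared. Those rare in the other cells could pass the filter only through the macrophages, so the count was partly fixed by the filter. Vsig4, a receptor that binds C3 fragments on resident macrophages, stood at 165 against 3.16 CPM. C3ar1 and C5ar1, receptors for the anaphylatoxins, stood at 91.9 and 54.8 CPM against 3.20 and 2.06, and Cfp, a stabiliser of the alternative pathway, at 64.5 against 4.01. The classical pathway's C2 and C4b were not called, at 83.9 and 54.8 CPM against 112 and 41.5. C2 was lower in the lower set (log2 ratio -1.60), and it was at 188 CPM in the Leydig cells with none of the 4 genes.

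The cells carried the factors that specify macrophages. Of 8 transcription factor genes compared, 7 were higher (median 1.84). Spi1 stood at 160 against 6.23 CPM and Maf at 318 against 33.6. Irf8 was not called, at 140 against 124 CPM. Of 4 genes compared in a list named for CSF1 and IL-34, 3 were higher, Csf1r by choice. The others were Csf2ra and Csf2rb (75.8 and 58.1 against 10.7 and 3.60 CPM). They encode receptor chains for other factors, not for CSF1 or IL-34. Csf1, the ligand of Csf1r, stood at 29.0 against 27.5 CPM and Il34, the other ligand, was at 0.

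**Figure D2:**
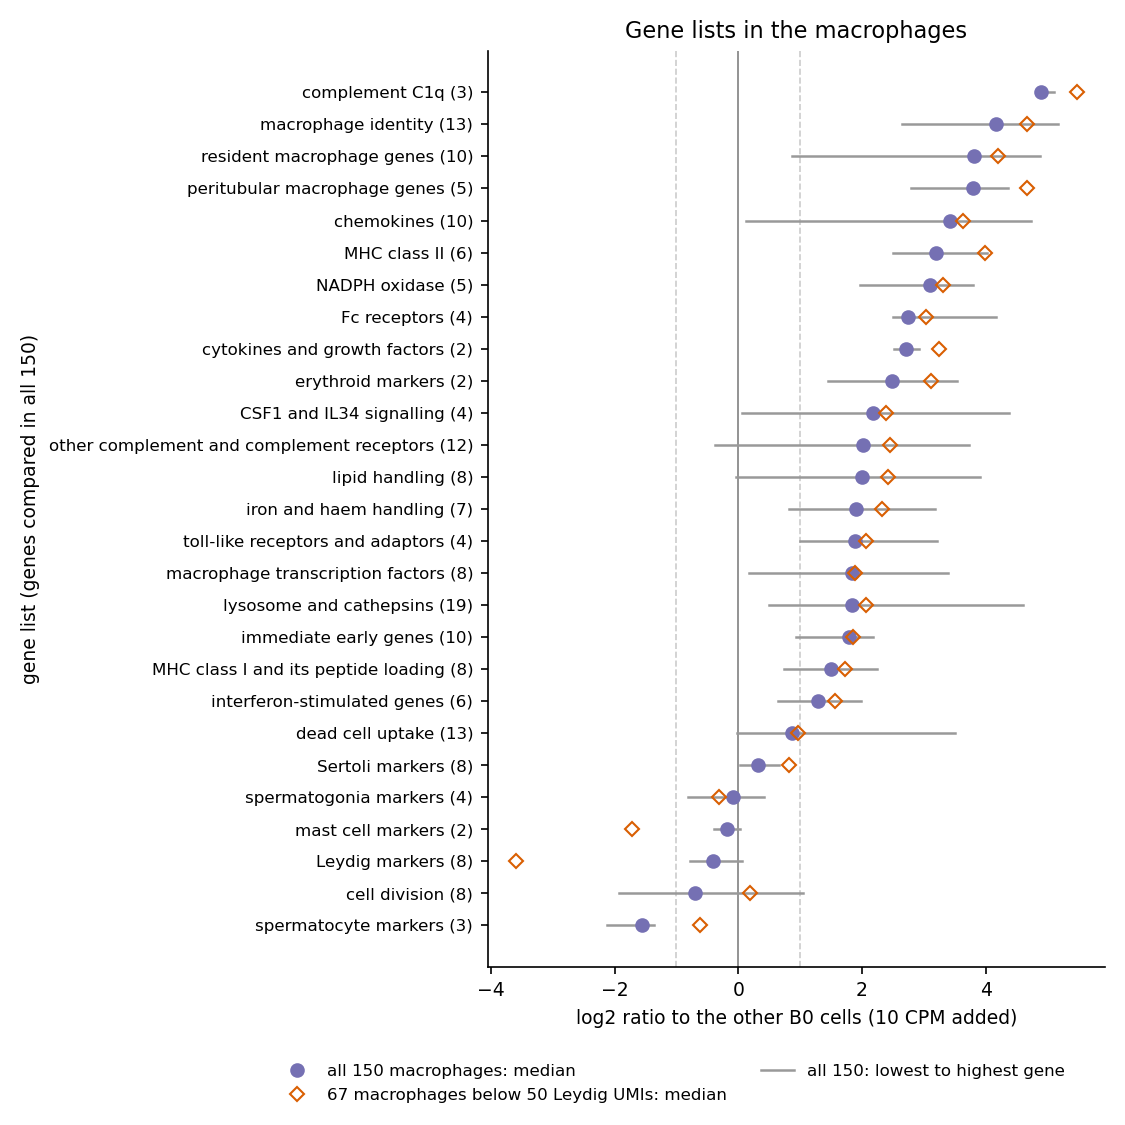
Log2 ratios of the macrophages to the other B0 cells for each gene list with at least 2 genes compared; circles are the median over the list's genes in all 150 macrophages, grey lines its lowest to highest gene, diamonds the median in the 67 macrophages below 50 Leydig UMIs, and dashed lines the 2-fold limits. The C1q and macrophage identity lists lie highest, and the Leydig list moves from -0.41 to -3.60 between the circle and the diamond.

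Genes of resident macrophages were high. Of 10 compared, 9 were higher (median 3.81; 4.20 in the lower set). Mrc1 was found in 74.7% of the macrophages at 361 against 14.05 CPM, Lyve1, a hyaluronan receptor, in 28.0% at 150 against 2.63, and Timd4, which binds phosphatidylserine on dying cells, in 29.3% at 105 against 2.19. F13a1, a clotting transglutaminase, stood at 552 against 20.1 CPM, and Cd209f, a lectin, at 466 against 14.05. Gas6, which bridges dying cells to their receptors, was the gene that was not called (410 against 219 CPM).

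Receptors for antibodies and dead cells, and the organelles behind them, were next. All 4 Fc receptor genes compared were higher (median 2.74), with Fcgr3 at 205 against 28.0 CPM. Of 13 genes of dead cell uptake, 6 were higher and 0 lower (median 0.87), and in the lower set 5 of 14 were higher and 1 lower (median 0.96). In all 757 cells with 2 of the genes the median was -0.28, but 357 of them held a median of only 2.55 macrophage identity UMIs per 10000. Stab1 and Timd4 had the largest ratios, at 3.50 and 3.24, and Axl (1.49) and Mertk (1.07) smaller ones, while Mertk stood at 0.97 in the lower set. Cd36 and Scarb1, which Leydig cells also use for lipid uptake, stood at 0.03 and -0.02, and at -1.22 and -0.99 in the lower set.

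Of 19 lysosomal genes, 14 were higher and 0 lower (median 1.83; 16 of 19 in the lower set, median 2.06, and 14 of 19, median 2.11, without its cells with Sertoli or NK markers). Sertoli cells are rich in these genes too, at a median of 77.7 UMIs per 10000 against 84.8 in the macrophages and 34.0 in the other cells. Ctss rose most, from 17.4 to 656 CPM (37.6-fold, 32.8 to 43.2), and was in 82.7% of the macrophages. Ctsc, Grn and Lgmn, a protease activator, a lysosomal cofactor and an endopeptidase, stood at 316, 873 and 692 against 19.8, 107 and 87.7 CPM. Lamp1 and Lamp2, the membrane proteins of every lysosome, were not called, with log2 ratios of 0.82 and 0.59. The 5 NADPH oxidase genes compared, which make superoxide in phagosomes, were all higher (median 3.10), with Cyba at 811 against 49.1 CPM and Cybb at 118 against 4.86.

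Lipid and iron genes belong to what macrophages do with the cells they take up. Apoe, which carries cholesterol out of cells, was among the most abundant transcripts at 9238 against 1819.6 CPM and ranged from 1 to 158 UMIs per cell. Of 8 lipid genes, 5 were higher (median 1.996), among them Trem2, Lgals3 and Lpl at 303, 119 and 53.2 against 10.9, 8.26 and 2.59 CPM. Soat1 and Abca1 were not, at -0.03 and 0.50. Of 7 iron and haem genes, 6 were higher (median 1.90). Slc40a1, the iron exporter, stood at 137 against 6.27 CPM, Slc11a1, the phagosomal metal transporter, at 56.4 against 2.31, and Hmox1, which breaks haem down, at 197 against 47.8.

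Haemoglobin RNA was concentrated in a few of the macrophages. In 9 of 150 (6%, exact interval 2.78 to 11.1) it made at least 100 UMIs per 10000, against 39 of the 4509 other cells (0.865%, 0.616 to 1.18). The share in the 9 ran from 2.91% to 51.3% of the cell's UMIs, and the highest of the other 141 macrophages held 0.121%. These 9 carried between 10 and 30 C1q UMIs each. Hbb-b1 stood at 6679 CPM over all 150 cells and at a log2 ratio of 3.62 to the other cells. Without the 9 cells, and 1 further macrophage in which spermatid genes made 15.0% of UMIs, Hbb-b1 stood at -1.92 and Hba-a1 at -2.45 in place of 3.54, but the comparison kept its own 39 rich cells, so the sign there is fixed by the choice. The median cell held 2.18 haemoglobin UMIs per 10000 among the macrophages and 2.09 among the other cells. Whether red cells were taken up, captured in the same droplet or stuck to the cells was not tested.

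Chemokines were a strong list. Of 10 compared, 9 were higher (median 3.42). Ccl8 stood at 1061 against 30.2 CPM, Ccl6 at 482 against 12.3, Ccl12 at 250 against 10.6 and Ccl24, which draws eosinophils, at 244 against 5.87. Ccl8 was uneven, with 75 of the 150 cells at 0 and up to 74 UMIs in one. Cxcl1, which draws neutrophils, was not called at 35.5 against 31.5 CPM. Of 12 cytokine and growth factor genes only Tgfb1 (129 against 14.2 CPM) and Igf1 (289 against 29.6) passed the filter, both higher, and Il1a and Il1rn were at 0.

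Signs of innate activation were mixed. Of 14 genes for toll-like receptors and their adaptors, 4 passed and 3 were called, led by Ly86 (111 against 3.04 CPM). Cd14 was not (log2 ratio 0.99). Interferon-stimulated genes were higher in 4 of 6 (median 1.29), with Ifitm3 at 713 against 173 CPM, while Isg15 stood at 35.5 against 18.8. No costimulation gene passed the filter, although Cd86 had 18 UMIs, and Cd80 was at 0. The costimulation list gave no UMI in 84% of the macrophages and 71.6% of their lower Leydig set, against 95.7% of the other cells. Immediate early genes, which tissue digestion can itself induce, were higher in 9 of 10 (median 1.79), with Fos at 526 against 140 CPM. How much of that came from handling was not tested.

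Antigen presentation genes were high in both classes. All 6 MHC class II genes compared were higher (median 3.20; 3.99 in the lower set), and 6 of 8 class I genes were (median 1.502), with H2-D1 at 1771 against 367 CPM and B2m at 1908 against 769. Class II RNA was spread unevenly. Of the 4 genes Cd74, H2-Aa, H2-Ab1 and H2-Eb1, 64 macrophages held none, 86 at least 1 and 17 all 4, and the 10 highest cells held 55.2% of the UMIs. All 5 genes compared of the peritubular list were higher too (median 3.80), 4 of them these class II genes and the other Cx3cr1. The top 3 cells had 429, 382 and 268 per 10000.

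The macrophages richest in class II lay in the set with less Leydig RNA. All 12 cells at 100 or more per 10000 lay in the lower set, as did the 16 highest in order, and the highest of the upper set had 75.5. At 50 or more there were 26 cells, 19 of them in the lower set. The identity genes of the upper set stood at 0.455 of the lower set's level, so these lines are not alike for both sets. Summed over cells, class II made 50.2 UMIs per 10000 in the lower set, 11.1 in the upper set and 1.57 in the other cells. Cells without any class II were found in both, 26 of 67 and 38 of 83. Dendritic markers were at or near 0 in all of them, as given above.

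**Figure D3:**
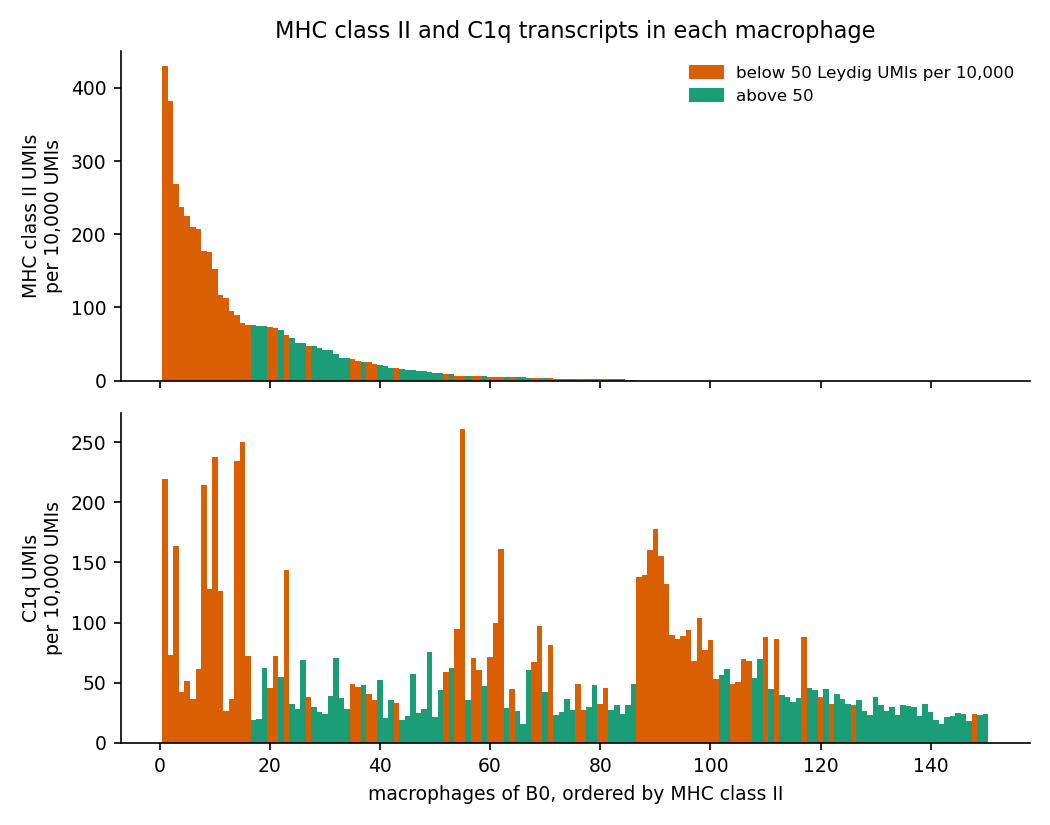
UMIs per 10,000 of 4 MHC class II genes (top) and of the 3 C1q genes (bottom) in each of the 150 macrophages, ordered by MHC class II and, where equal, by rank of choice; orange bars are cells below 50 Leydig UMIs per 10,000 and green bars cells above. The 16 cells highest in class II are all orange, and C1q is high in some cells with class II and in some with none.

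Split at the median of class II into 75 and 75 cells, 174 of 6298 genes were higher in the cells with more class II (2.76%) and 174 lower (2.76%). The 4 class II genes made the split and are no finding. Ccl8 stood apart, at 1788 CPM with more class II against 393 with less (log2 ratio 2.16, and 2.29 among the lower Leydig set alone, where 622 of 6401 genes were higher, 9.72%, and 536 lower, 8.37%). H2-DMa and H2-DMb1, which load peptides on class II, had ratios of 1.56 and 1.94, and Ccl12, Iigp1, Ramp1 and Notch2 ratios of 1.48, 1.56, 1.52 and 1.46.

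Genes of the resident list differed little between these groups, with a median ratio of -0.29 and 1 of 10 called, Timd4 (1.08). The groups met at 2.74 and 2.71 class II UMIs per 10000, so the group with more also held cells with little. The 12 cells with 100 or more held from 4.55 to 81.1 resident UMIs per 10000. The median of the lower Leydig set was 45.0. A trend of resident genes with the level of class II was not tested. With more and less class II, Folr2 stood at 421 and 446 CPM, Mrc1 at 357 and 365, and Cx3cr1 at 791 and 814. Lyve1 (138 and 161 CPM) and Pf4 (569 and 894) were somewhat lower with class II and within the 2-fold limits. C1q differed little too, at 64.0 and 49.3 UMIs per 10000. The 10 largest falls included the kallikreins Klk1b27, Klk1b21 and Klk1b24, with ratios of -1.56, -1.55 and -1.21. Leydig RNA had a median of 86.7 per 10000 with more class II and 134 with less. These kallikreins were at 610, 729 and 717 CPM in the Leydig cells with none of the 4 genes, and within the lower Leydig set they gave 1 and 1, 3 and 3, and 5 and 1 UMIs with more and less class II, too few to compare. The part of Leydig RNA in these falls was not tested. Haemoglobin fell as well (Hbb-b1 -1.46), from the few cells named above.

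The 10 genes lowest in the macrophages relative to the other cells were Tex40, Tuba3b, Cox7b2, Tuba3a, Dkkl1, March11, Ccl27a, Ldhc, Cmtm2a and Ldhal6b, with log2 ratios from -2.98 to -2.62. Ldhc, the sperm lactate dehydrogenase, stood at 368 against 2333 CPM. The count of lower genes depended on the comparison cells. Against the 3578 other cells between the 5th and the 95th percentile of the macrophages' UMIs (3045 to 6128), 66 genes were lower in place of 802, and 6 of these 10 turned to ratios above 0, with Ldhc at 0.64. There 503 genes were higher, against 644. With every cell thinned to 2900 UMIs 301 genes were lower, and none of the named ratios past 2-fold reversed.

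Cell division genes were mostly not called. Of 8 compared, 1 was higher and 2 lower (median -0.70), but the median was 0.67 against the other cells between the same percentiles of UMIs, 0.67 in all 757 cells with 2 of the genes and 0.19 in the lower set, so its sign depended on the cells compared. Mki67 was found in 10.7% of the macrophages at 40.3 against 14.3 CPM (79.2 CPM in the lower set and 11.3 in the upper), while Ccnb1 and Ccnb2 were lower, at 17.7 and 37.1 against 96.1 and 167 CPM, and turned to log2 ratios of 0.67 and 0.71 in all 757 cells. In the lower set Mki67 was 1.87 and Top2a 0.68 above the other cells on the log2 scale.

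Markers of the other somatic cells moved less than the macrophage genes. Of 8 Sertoli genes compared, 0 were called (median 0.31), with Clu at 1690.3 against 1566 CPM, and in the lower set 3 of 9 were higher, Rhox8 at 513 CPM among them. That lay in a few cells. Of the 67 cells of the lower set 12 (17.9%, 9.61 to 29.2) held at least 70.3 Sertoli UMIs per 10000, the lowest value of the Sertoli set, against 0 of the 83 in the upper set (exact upper limit 4.35%) and 251 of the other cells (5.57%, 4.92 to 6.28). These 12 had a median of 76.9 macrophage identity UMIs per 10000, against 128 in the rest of the lower set and 1.95 in the 251. Without them and the cell with NK markers, 0 of 8 Sertoli genes were higher and 2 lower in the lower set (median -0.41). Leydig genes were not called over all 150 cells (0 of 8, median -0.41) and all 8 were lower in the lower set, which they had defined. The peritubular myoid gene compared, Myl9, was not called (0.32), and the endothelial gene Egfl7 was just past the limit (1.01). Spermatogonia genes were not called (0 of 4), and 3 of 3 spermatocyte genes were lower (median -1.55). Over 17 settings the spermatocyte median ran from -1.66 to -0.30, so its size depended on the cells compared. Of 2 mast cell markers compared, Kit and Hdc, 0 were called. The part of these other cell types in the results above was not tested.

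UMIs of the 4 genes were found in all 4 libraries, at the highest level in B0. Over the whole library C1qa stood at 0.981 CPM (A0), 0.313 (A10), 117 (B0) and 12.3 (BA10), and Csf1r at 0.179, 0.0905, 35.1 and 1.98 in the same order. C1qb was different in the libraries without busulfan, at 9.93 and 9.73 CPM in A0 and A10, which was about as high as the 7.89 of BA10 and far above C1qa in the same cells (1497 UMIs against 148 in A0). In B0 and BA10 C1qa exceeded C1qb. The source of the C1qb reads in A0 and A10 was not tested.

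Cells with at least 2 of the 4 genes came to 0.336% of A0 (0.226 to 0.479), 0.155% of A10 (0.0867 to 0.255), 16.2% of B0 (15.2 to 17.3) and 6.91% of BA10 (6.12 to 7.76). The libraries differed in depth, with medians of 12685, 10948, 4214 and 17989 UMIs per cell. With each cell thinned to 2900 UMIs the shares were 0.123%, 0.0413%, 11.3% and 1.40%, against 16.2% and 6.91% before in B0 and BA10. Part of these shares is background. It was measured in 150 germ cells of each library, chosen below the lowest macrophage's score. At least 2 of the genes were found in 0 of those of A0 and A10, which allows up to 2.43% by the exact bound. They were found in 3.33% of B0 (1.09 to 7.61) and 4.67% of BA10 (1.90 to 9.38). The medians were 11171.5, 9630, 4679 and 14209.5 UMIs. The score uses the same 4 genes, so germ cells high in them were left out and these shares may run low. Of the 4509 other cells of B0, which also lie below that score, 607 held at least 2 of the genes. Thinned, the germ cells gave 2% in B0 (0.414 to 5.73) and 0.667% in BA10 (0.0169 to 3.66). The share of B0 lay above its background, and that of BA10 was within the interval of its own, so it is not read as macrophages. The shares of A0 and A10 lay under what 150 germ cells can resolve. Cells that reached the score of the lowest macrophage numbered 1 in A0, 0 of 9682 in A10, which allows a share of up to 0.0310% at 3 counts and 0.0381% by the exact bound, 150 in B0 (3.22%) and 9 in BA10 (0.238%, 0.109 to 0.452).

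**Figure D4:**
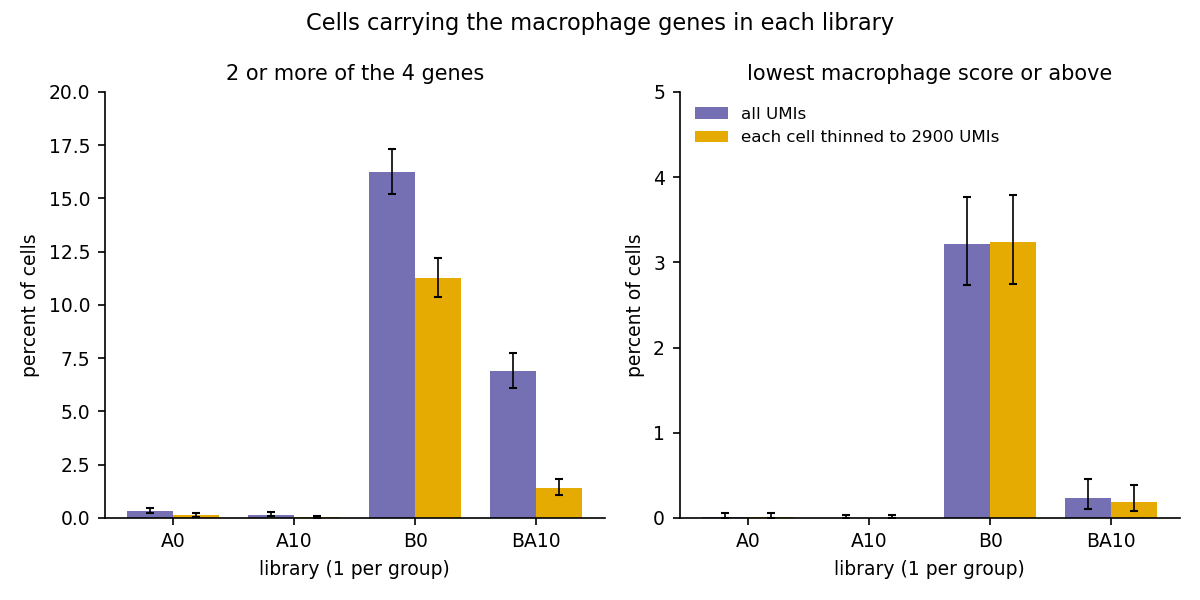
Percent of cells in each library (1 per group) with 2 or more of C1qa, C1qb, C1qc and Csf1r (left) and with a mean value at or above that of the lowest macrophage of B0 (right), at full depth and with each cell thinned to 2900 UMIs; bars are shares and whiskers exact 95% binomial intervals, which cover counting error only. B0 stands highest in both panels, at 16.2% and 3.22% at full depth, where germ cells, not drawn, gave 3.33% in the left panel's measure.

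The lower limit of UMIs per cell also differed between libraries. The shallowest cell of A0 had 7687 UMIs, that of A10 6716, that of B0 2985 and that of BA10 9013. Only 3 of the 150 macrophages of B0 (2%, 0.414 to 5.73) would have passed the limit of any of the other libraries, against 12.8% of the other B0 cells at the limit of A0. Among cells of 9000 or more UMIs, 3 of 449 in B0 (0.668%, 0.138 to 1.94) and 9 of 3778 in BA10 (0.238%) reached the lowest macrophage's score, and the intervals overlap. At least 2 of the 4 genes were found in 30.7% (26.5 to 35.2) of those cells in B0 and 6.91% (6.12 to 7.76) in BA10, and at least 3 in 8.69% (6.25 to 11.7) and 2.06% (1.64 to 2.57). The 150 germ cells chosen among those of that depth gave 30% (22.8 to 38.0) and 8.67% (4.70 to 14.4) in B0, and 4.67% and 0.667% in BA10, so in deep cells the shares of B0 were those of the background and are not read as a difference. How much of the higher share in B0 came from its lower limit, from free RNA, from the loss of germ cells that leaves other cells a larger share, or from more macrophages cannot be told apart.

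The 9 cells of BA10 at that score had a median of 10477 UMIs and a median of 3.93 Leydig UMIs per 10000. Summed over the 9 cells, Insl3 stood at 836 CPM. In B0 it stood at 5713 in the 150 macrophages, 419 in their lower Leydig set and 157 in the germ cells. Lyz2 stood at 781 CPM in the 9 cells, Tyrobp at 836, Apoe at 9395, Mrc1 at 91.8 and Cd74 at 193, against 1523, 1040.3, 9238, 361 and 1803 in the 150 macrophages of B0. With 9 cells from 1 library, and cells chosen by the same score at other depths, these are levels side by side and were not compared further.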

How the data were processed

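Testis cells of 4 libraries (A0, A10, B0, BA10) were measured by droplet RNA sequencing. Per the submitters' processing notes and the methods, the authors counted reads with Cell Ranger 2.2.0 on mm10. The table they deposited holds natural log values: UMIs of a gene were scaled by the authors to a total of 10000 per cell, 1 was added and the natural log taken. UMIs were recovered from them, whole within 0.01 for 100% of values above 0. Depth was 2995 to 13377 UMIs per macrophage, and 1 UMI per cell is the finest step. Alignment between libraries was not applied. B0 shares 56, 56 and 31 barcodes with A0, A10 and BA10, of which 2, 5 and 1 belong to macrophages. Doublets were kept and no caller was run.

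UMIs were summed over cells with Python 3.11.15, numpy 2.4.6 and scipy 1.17.1, and compared as CPM with 10 CPM added, among genes in at least 10% of either set. The members, gene lists and comparisons were chosen with earlier results of these data known. Named genes were those of the lists, the 25 largest ratios among genes in at least 20% of macrophages, the 10 lowest among genes in at least 20% of other cells, and the 10 at each end of the MHC class II split. Lists follow textbook knowledge, and a few of their genes are not reported here. Of 18419 symbols, 17546 matched GENCODE M21. Intervals are exact Poisson or Clopper-Pearson, at 95%. On simulated counts for 16851 genes, 96.0% of 200 changed genes came within 0.5 on the log2 scale. The 200 were drawn from genes well expressed in the other cells, with counting error alone. Ratios of genes rare in the other cells were not checked in this way. Alternatives were the added CPM, the filter, the choice of members and of comparison cells, and thinning to 2900 UMIs.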

Additional observations from a re-analysis of the deposited data

How the results depend on the processing

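Depth limits what can be read. The macrophages had a median of 3758.5 UMIs, and genes seen in under 10% of the macrophages and of the other cells were not compared. With 1 library per group no difference between groups has a replicate check. No paired analysis was possible because each group is 1 library. Changing the rule to at least 3 of the 4 genes chose the same cells. The choices of the members below 50 Leydig UMIs and of leaving out haemoglobin-rich and spermatid-rich or Sertoli-rich and NK-rich members were made after seeing the data. Without the Sertoli-rich and NK-rich members 618 genes were higher and 819 lower. Of 30 list medians and 210 named ratios, 0 of those past 2-fold reversed. The Sertoli median, within 2-fold, changed sign from 0.31 to -0.26.

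Against 644 genes higher and 802 lower, 50 CPM added gave 241 and 364, and all 757 cells with 2 of the genes gave 132 and 1. Genes lower numbered 492 by the mean over cells, 387 against other cells with 0 of the 4 genes, 66 against other cells between the 5th and the 95th percentile of the macrophages' UMIs (3045 to 6128, below called the UMI range) and 301 with cells thinned to 2900 UMIs, and genes higher numbered 1008 in the members below 50 Leydig UMIs. The share of calls that were higher was 44.5%, 88.4% within the UMI range, 62.2% thinned and 59.9% against cells with 0 of the 4 genes.

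The macrophage identity median (4.16) was 4.61 with 1 CPM and 2.75 with 50 CPM added, 2.60 in all 757 cells, 4.59 in the 75 members lowest in Leydig RNA, 4.58 against cells with 0 of the 4 genes and 4.66 in the members below 50 Leydig UMIs. In those same settings the MHC class II median (3.20) was 3.95, 2.11, 2.08, 3.86, 3.53 and 3.99, and it was 2.84 with no filter on genes and 3.46 with 100 members. The lysosome median (1.83) was 0.35 in all 757 cells. The Leydig median (-0.41) was -0.81 by the mean over cells, -0.85 with 100 members, -0.73 in all 757 cells, -2.72 in the 75 members lowest in Leydig RNA, -0.66 against cells with 0 of the 4 genes, -0.96 within the UMI range, -0.79 thinned and -3.60 below 50 Leydig UMIs. Leydig RNA in the members as a percent of the level of Leydig cells was 45.3%, and 43.4% without Insl3.

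Of the 757 cells with 2 of the genes, the 357 ranked last had a median of 2.55 macrophage identity UMIs per 10000. The 150 macrophages had 59.9 and the other cells of B0 0.948. Those 357 cells had a median of 5351 UMIs, so the 757 were not read as macrophages alone. Directions reversed mostly in all 757 cells. Of the medians past 2-fold, there those of other complement (-0.17), MHC class I (-0.025) and interferon-stimulated genes (-0.26) turned, as did Tex40 (0.91), Tuba3b (0.54), Cox7b2 (0.66), Tuba3a (0.62), Dkkl1 (0.80), March11 (1.02), Ccl27a (0.84), Ldhc (0.89), Cmtm2a (0.97), Ldhal6b (0.87), Ccnb1 (0.67), Ccnb2 (0.71), Ddx4 (0.52) and Mael (0.72) upward, and Cebpb (-0.049), B2m (-0.22), H2-K1 (-0.039), Psmb9 (-0.081), Lrp1 (-0.18), Npc2 (-0.16), Blvrb (-0.088), Egfl7 (-0.057) and Alas2 (-0.014) downward. Within the UMI range Tex40 (0.083), Dkkl1 (0.18), March11 (0.62), Ldhc (0.64), Cmtm2a (0.63) and Ldhal6b (0.39) turned. Without haemoglobin-rich and spermatid-rich members the erythroid median (-2.45), Hbb-b1 (-1.92) and Hba-a1 (-2.45) turned, with such cells kept in the comparison, and with no filter the endothelial median did (-0.013). Of medians within 2-fold, those of dead cell uptake (-0.28), cell division (0.67), Sertoli (-0.56) and peritubular myoid genes (-0.50) also changed sign in all 757 cells, as did cell division within the UMI range (0.67), thinned (0.0993), in the 75 members lowest in Leydig RNA (0.046) and below 50 Leydig UMIs (0.19), Sertoli genes without the Sertoli-rich and NK-rich members (-0.26), peritubular myoid genes with no filter (-0.055) and spermatogonia genes in the members up to the 90th percentile of UMIs (0.017). The causes were not tested.

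Shares of cells with at least 2 of the genes moved to 13.8%, 12.4%, 40.7% and 31.6% (A0, A10, B0, BA10) with at least 1, to 0.157%, 0.0413%, 9.19% and 2.06% with at least 3 and to 0.123%, 0.0413%, 11.3% and 1.40% thinned, and the B0 share was 30.7% among cells of 9000 UMIs or more, where germ cells gave 30%. The MHC class II split had 174 genes higher and 174 lower, against 407 and 421 between the 50 highest and the 50 lowest, 596 and 601 in the 75 members lowest in Leydig RNA and 622 and 536 below 50 Leydig UMIs, all with fewer cells, and Ccl8 fell to 1.67 thinned.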
